A study of Mus musculus with 6 samples.

Results

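The enzymes described here remove superoxide and peroxides: the glutathione peroxidases Gpx1, Gpx2, Gpx3, Gpx4 and Gpx7, catalase (Cat), the superoxide dismutases Sod1, Sod2 and Sod3, and the peroxiredoxin Prdx1. Of these 10 listed genes 9 were measured, out of 18193 genes in all. Prdx1 was left out because each of its 5 probe sets also names a further gene. Where a gene had several probe sets, the one of highest mean level was read. The list was chosen by name around Gpx3, which was selected on its measured differences between the stages in these same livers, so the differences of Gpx3 are given as a description with no test, and the counts of genes that passed the test are over the other 8 enzymes.

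The livers came from CYP2D6-humanized mice on the C57BL/6 strain, and all groups carry the transgene, the human gene for the drug-metabolising enzyme CYP2D6. The 3 groups were pre-pregnancy liver, liver at day 21 of pregnancy and liver at day 7 postpartum, with 2 biological replicates each and 1 array per liver. No group lacks the transgene, and its promoter, the ages of the animals and the collection times were not given in the sources used here. Levels are on the log2 scale, on which a difference of 1 is a 2-fold change. All 9 measured hepatocyte markers, Alb and Apob among them, stood above 5.51, the level under which a gene is called dim here (the 40th percentile of gene means). In whole liver, fewer cells of a type and less RNA per cell cannot be told apart.

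Superoxide dismutases turn superoxide into hydrogen peroxide, which catalase breaks down in peroxisomes and which glutathione peroxidases and peroxiredoxins reduce with electrons from NADPH, passed through glutathione or thioredoxin. Most members stay inside the cell, in the cytosol, mitochondria, peroxisomes or endoplasmic reticulum, whereas Gpx3 is secreted into plasma and Sod3 into the extracellular space. Gpx1, Gpx2, Gpx3 and Gpx4 are selenoproteins, which carry selenocysteine at the active site, and Gpx7 is not. The kidney is known as the main source of plasma Gpx3, and the liver is rich in catalase and Gpx1.

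The bases before the start sites of Gpx3 and Gpx1 are shown because these are the glutathione peroxidase with the largest difference and the one that passed the test as lower in pregnancy. The sequences are from RefSeq on the build GRCm38.p6, 250 bases upstream of the start on the plus strand, at chr11:54902604-54902853 for Gpx3 and chr9:108338830-108339079 for Gpx1. Capitals mark matches to any of 5 motifs searched on both strands.
Gpx3: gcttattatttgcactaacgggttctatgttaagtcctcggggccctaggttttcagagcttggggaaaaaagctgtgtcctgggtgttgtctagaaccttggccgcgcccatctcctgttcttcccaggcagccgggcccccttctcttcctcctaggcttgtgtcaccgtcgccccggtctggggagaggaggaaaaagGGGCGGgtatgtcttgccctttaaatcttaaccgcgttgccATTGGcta
Gpx1: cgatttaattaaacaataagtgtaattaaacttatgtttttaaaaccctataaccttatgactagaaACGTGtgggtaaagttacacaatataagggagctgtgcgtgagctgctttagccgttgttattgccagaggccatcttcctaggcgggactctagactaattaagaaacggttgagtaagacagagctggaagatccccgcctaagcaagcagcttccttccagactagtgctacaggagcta

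The Gpx3 window held a GC box (GGGCGG) at -49 to -44 from the start, which 32.7% of 32851 RefSeq promoters of the same length hold, and a CCAAT box (CCAAT, here on the minus strand) at -8 to -4, which 33.8% hold. The Gpx1 window held neither. It held the core of the hypoxia response element (ACGTG) at -183 to -179, found in 16.6% of promoters. The core of the antioxidant response element (TGACNNNGC, in 10.2% of promoters) and the TATA box (TATAAA, in 12.4%) were in neither window. Among the listed enzymes with an entry, the antioxidant core was found before Sod1 and Prdx1. A match describes the letters only. Promoters of 9 of the 10 listed genes were in the table; Sod3 was not among them.

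Gpx3, the secreted plasma glutathione peroxidase, stood at 7.40 and 6.94 before pregnancy, at 11.02 and 11.28 at day 21 of pregnancy, and at 7.74 and 7.87 at day 7 postpartum. The groups did not overlap at any stage: both pregnant livers lay far above the other 4, and both postpartum livers lay above both pre-pregnancy livers. Between pregnancy and pre-pregnancy the mean log2 difference was 3.98 (SE 0.168), a 15.8-fold higher level, and the single pairs of livers were 3.62 to 4.34 apart. Between postpartum and pregnancy the difference was -3.345 (SE 0.168), a 10.2-fold lower level, with pairs 3.15 to 3.54 apart.

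The postpartum level of Gpx3 stayed 0.635 (SE 0.168) above the pre-pregnancy level on the log2 scale, or 1.55-fold, and 0.405 and 0.865 above it without pre-pregnancy replicates 2 and 1, since those livers differed from each other by 0.46. Among all 18193 genes Gpx3 had rank 2 among rises from pre-pregnancy to pregnancy and rank 1 among falls from pregnancy to postpartum, and it had rank 505 among rises from pre-pregnancy to postpartum. These ranks describe the gene for which the list was made. Gpx3 has 1 probe set on the array, so no other probe set bears on its values.

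**Figure D1:**
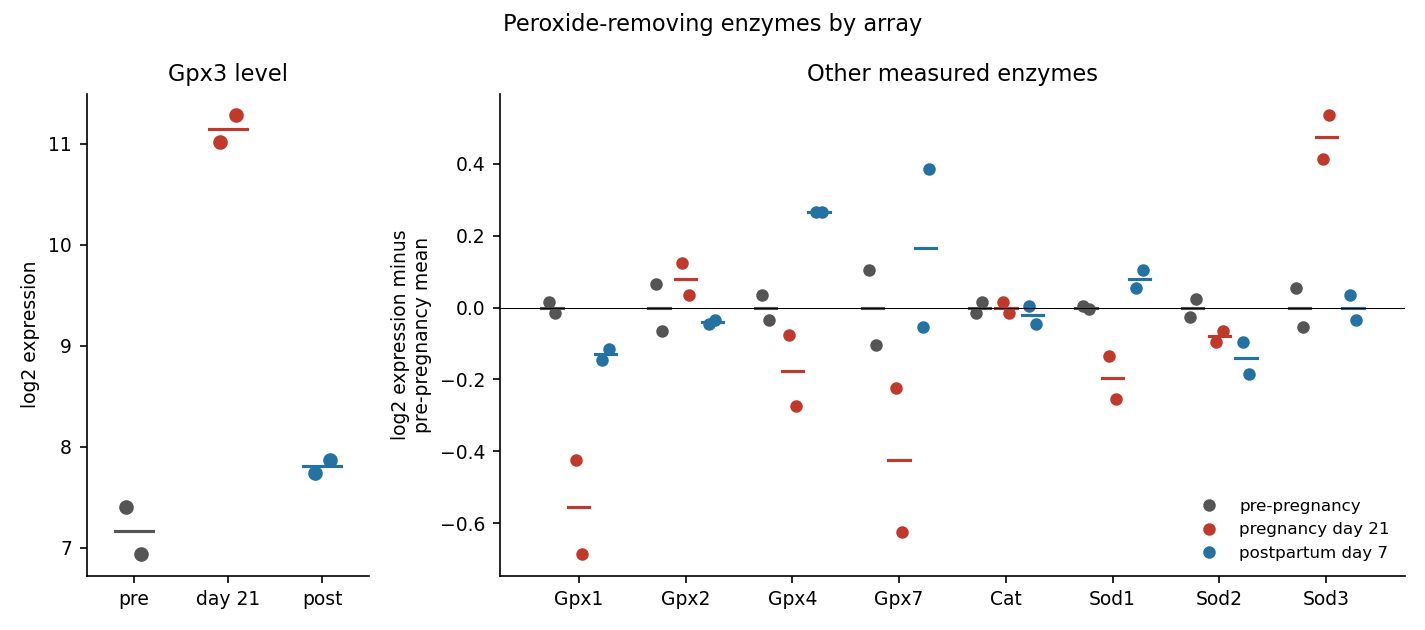
Level of Gpx3 on the log2 scale (left) and log2 level minus the pre-pregnancy mean for the other 8 measured enzymes (right), by stage. Points are single livers and lines are means of 2 livers. The pregnant livers stand at 11.02 and 11.28 for Gpx3, while the other enzymes lie within 0.7 of their pre-pregnancy means.

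At day 21 of pregnancy, against pre-pregnancy, Gpx1 was lower and Sod3 higher by limma's test, and the other 6 of the 8 enzymes besides Gpx3 did not pass it (adjusted p under 0.05, Benjamini-Hochberg over 18193 genes). Called were thus 2 of 8, where 13.7% of all genes were called, 5.46% higher and 8.25% lower. At an unadjusted p under 0.05 there were also 2 of 8, where 31.0% of genes were. Their median log2 difference was -0.128, beside 0.045 over all genes. The arrays of the 2 stages did not overlap for 6 of the 8, 1 higher and 5 lower, where 59.6% of all genes did not overlap, 33.6% higher and 26.0% lower.

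Gpx1, the cytosolic and mitochondrial glutathione peroxidase, stood at 14.2 and 14.17 before pregnancy, at 13.76 and 13.5 in pregnancy, and at 14.04 and 14.07 postpartum. Both pregnant livers were below the other 4. It fell by 0.555 on the log2 scale in pregnancy (SE 0.117, 95% interval -0.83 to -0.28, 1.47-fold, limma adjusted p = 0.0219). Gpx1 missed the threshold when either pre-pregnancy liver was left out (replicate 1: -0.54, limma adjusted p = 0.139, and replicate 2: -0.57, adjusted p = 0.0883). It also missed it without the second pregnant liver (-0.425, adjusted p = 0.0816), and kept its call without each of the other 3 arrays.

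Gpx4, which reduces lipid hydroperoxides in membranes, stood at 12.37 and 12.3 before pregnancy, then at 12.26 and 12.06 at day 21, and at 12.6 in both postpartum livers. The pregnant livers were the lowest and the postpartum livers the highest, with no overlap. The pregnancy difference was -0.175 (95% interval -0.43 to 0.08, limma adjusted p = 0.316). Its other probe set stood at 12.04 and 11.8, then 12.1 and 12.07, then 12.31 and 12.34 over the 3 stages, a difference of 0.165 in pregnancy (limma adjusted p = 0.384), so the 2 probe sets differ in sign there. Both place the postpartum livers highest.

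Gpx7, a peroxidase of the endoplasmic reticulum that aids disulfide formation, stood at 7.68 and 7.47 before pregnancy, at 7.35 and 6.95 in pregnancy, and at 7.52 and 7.96 postpartum. The pregnant livers were again the lowest, but replicates differed by 0.21 to 0.44, the widest spread among the 8 enzymes at each stage. Its difference in pregnancy was -0.425 (95% interval -0.86 to 0.01, limma adjusted p = 0.166). Gpx2, known best from the gut epithelium, stood at 6.37 and 6.24, then 6.43 and 6.34, then 6.26 and 6.27, and the stages overlapped between pre-pregnancy and pregnancy. Its difference there was 0.08 (95% interval -0.16 to 0.32, limma adjusted p = 0.637).

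Catalase, the peroxisomal enzyme, stood at 13.53 and 13.56 before pregnancy, at 13.56 and 13.53 in pregnancy, and at 13.55 and 13.5 postpartum. The livers of all stages overlapped. The pregnancy difference was 0 with a 95% interval of -0.22 to 0.22 (limma adjusted p = 1), which bounds a change at this probe set to 0.22 in either direction. The other catalase probe set differed by 0.04 (limma adjusted p = 0.867).

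Among the dismutases, Sod3, the secreted copper- and zinc-containing enzyme, stood at 6.77 and 6.66 before pregnancy, at 7.13 and 7.25 in pregnancy, and at 6.75 and 6.68 postpartum. Both pregnant livers were above the other 4, which overlapped. It rose by 0.475 in pregnancy (SE 0.106, 95% interval 0.23 to 0.72, 1.39-fold, limma adjusted p = 0.0262). Sod3 missed the threshold without the first (0.53, limma adjusted p = 0.108) or the second pre-pregnancy liver (0.42, adjusted p = 0.117) and without the second pregnant liver (0.415, adjusted p = 0.0984). A second, dimmer probe set stood at 5.75 and 5.86, then 6 and 5.46, then 5.46 and 5.43, with a pregnancy difference of -0.075 (limma adjusted p = 0.807). With the mean of the probe sets Sod3 was not called (0.2, adjusted p = 0.205), so its rise rests on the brighter probe set.

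Sod1, the cytosolic copper- and zinc-containing dismutase, stood at 13.56 and 13.55 before pregnancy, at 13.42 and 13.3 in pregnancy, and at 13.61 and 13.66 postpartum. Its pregnant livers were the lowest and its postpartum livers the highest, without overlap, and the pregnancy difference was -0.195 (95% interval -0.43 to 0.04, limma adjusted p = 0.232). Of its other 4 probe sets, 1 almost as bright differed by -0.12. A much dimmer one stood at 7.15 and 7.36 before pregnancy and at 6.02 and 7.17 in pregnancy, a difference of -0.66 (limma adjusted p = 0.2 over all probe sets) in which the second pregnant liver lay between the pre-pregnancy livers and the first lay below them.

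Sod2, the manganese dismutase of mitochondria, gave different answers by probe set. The brightest stood at 12.34 and 12.39, then 12.27 and 12.3, then 12.27 and 12.18 over the 3 stages, a pregnancy difference of -0.08 (95% interval -0.31 to 0.15, limma adjusted p = 0.621). A less bright one stood at 10.38 and 10.11, then 9.13 and 9.15, then 9.64 and 9.59. At that probe set both pregnant livers were lowest, both pre-pregnancy livers highest, and no stages overlapped.

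The less bright Sod2 probe set fell by 1.105 in pregnancy (SE 0.12, 2.15-fold, limma adjusted p = 0.00233 over all probe sets), and its call held without each of the 6 arrays in turn, at -0.97 to -1.24. It stood at -0.63 postpartum against pre-pregnancy (limma adjusted p = 0.0204), a call lost without pre-pregnancy replicate 1 (-0.495) or postpartum replicate 1 (-0.655) or 2 (-0.605). The other 2 Sod2 probe sets differed by -0.215 and -0.24 in pregnancy (limma adjusted p = 0.219 and 0.333). With the mean of all 4 probe sets Sod2 was called lower in pregnancy (-0.41, adjusted p = 0.0304), so whether the gene counts as changed depends on the probe set. Which transcripts each probe set reads was not analysed here.

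**Figure D2:**
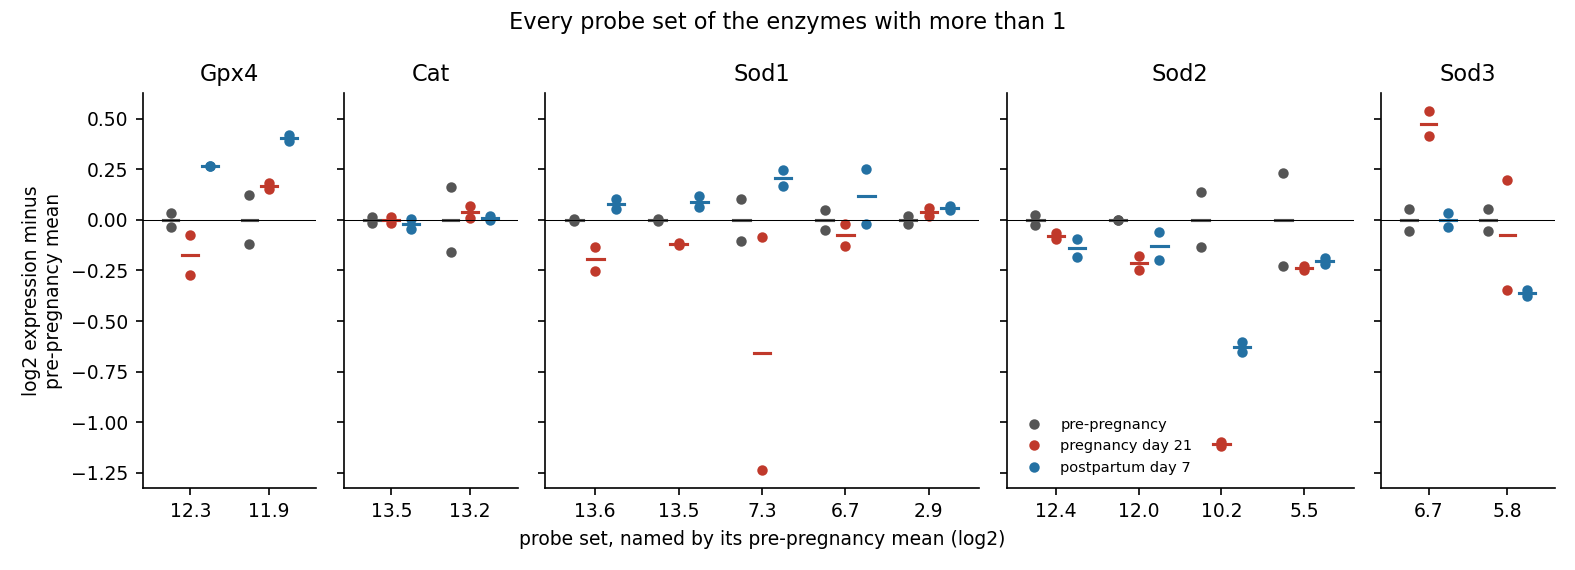
Log2 level minus the pre-pregnancy mean for every probe set of the 5 enzymes that have more than 1, ordered and named by the pre-pregnancy mean; points are single livers and lines means of 2. For Sod2 the probe set at 10.2 has both pregnant livers about 1.1 lower, while the brightest, at 12.4, is 0.08 lower.

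**Figure D3:**
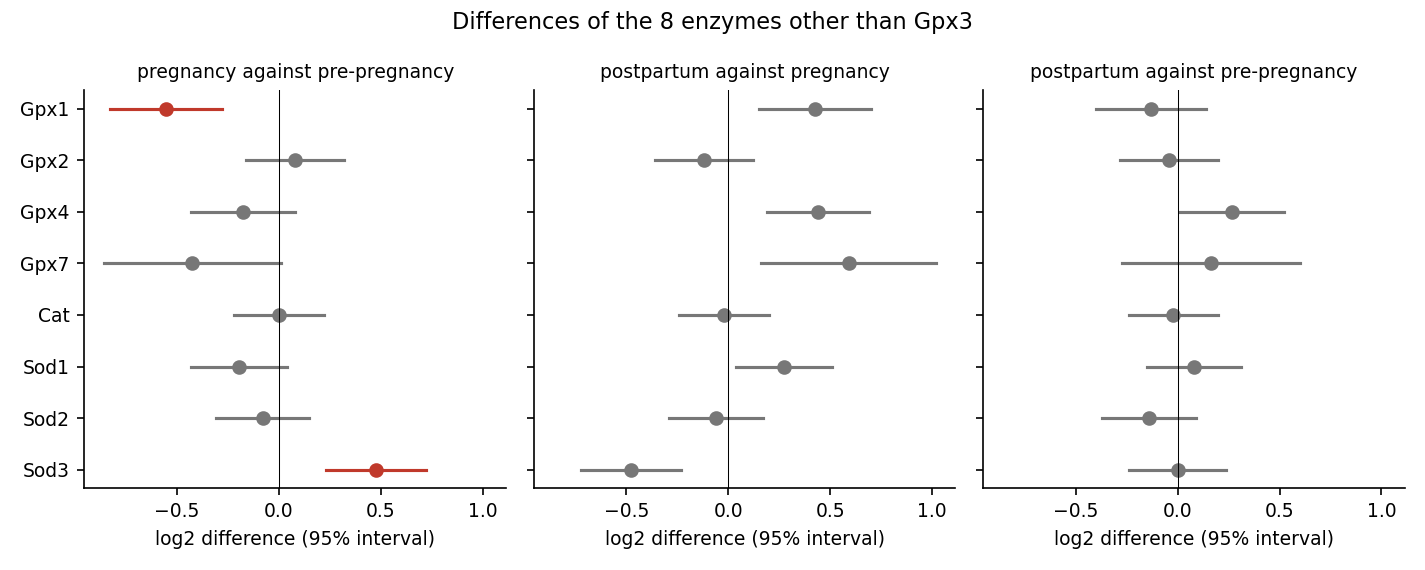
Log2 difference of the 8 enzymes other than Gpx3 in the 3 comparisons, with 95% intervals from limma; red marks an adjusted p under 0.05. Gpx1 (-0.555) and Sod3 (0.475) are red in pregnancy against pre-pregnancy, and no enzyme is red in the other comparisons.

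From day 21 of pregnancy to day 7 postpartum, 0 of the 8 enzymes passed limma's adjusted threshold, where 3.29% of all genes did, 2.41% higher and 0.879% lower. At an unadjusted p under 0.05 there were 5 of 8, where 20.7% of genes were. Gpx1 was 0.425 higher postpartum (95% interval 0.15 to 0.70, limma adjusted p = 0.0974), Gpx4 0.44 higher (0.19 to 0.69, adjusted p = 0.0759), Gpx7 0.59 higher (0.16 to 1.02, adjusted p = 0.133) and Sod1 0.275 higher (0.04 to 0.51, adjusted p = 0.179). Sod3 was 0.475 lower (-0.72 to -0.23, adjusted p = 0.0562). Cat (-0.02), Gpx2 (-0.12) and Sod2 (-0.06) were closer to 0, with intervals that include it.

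Of these, Sod3, Gpx4 and Gpx1 lay nearest the threshold and were called in some settings, while Gpx7 and Sod1 were called in none. Sod3 was called without dim genes (limma adjusted p = 0.0497), after quantile normalization again (0.0394) and with arrays centred on their medians (0.0494). With a trended and robust variance Gpx1 (0.02) and Gpx4 (0.0215) were called, and Sod3 was not. With a replicate block 0 of the 8 were called (Sod3: limma adjusted p = 0.0731). The same held with the mean of probe sets and with only the 2 groups compared. The arrays did not overlap for 6 of the 8 enzymes, 4 higher and 2 lower, where 50.1% of genes did not, 25.1% higher and 25.0% lower. This comparison shares its pregnant livers with the one above, so opposite signs in the 2 are not independent.

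From pre-pregnancy to day 7 postpartum, 0 of the 8 enzymes passed limma's adjusted threshold, where 7.66% of genes did (3.91% higher and 3.75% lower), and 1, Gpx4, had an unadjusted p under 0.05, where 22.9% of genes had. Gpx4 was 0.265 higher (95% interval 0.01 to 0.52, adjusted p = 0.198). The other 7 differed by -0.14 (Sod2) to 0.165 (Gpx7), with 95% intervals that include 0. Sod3 was at 0 (interval -0.24 to 0.24) and Gpx1 at -0.13 (interval -0.40 to 0.14). The arrays did not overlap for 4 of the 8, 2 higher and 2 lower, where 52.6% of genes did not, 30.0% higher and 22.6% lower. The median of the 8 was -0.01 beside 0.025 over all genes.

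The relatives of the listed enzymes were read next. For the counts in this and the following lists, 5.46% of all genes were called higher in pregnancy and 8.25% lower. In postpartum against pregnancy 2.41% were called higher and 0.879% lower. Of 6 measured other glutathione peroxidases and peroxiredoxins, 1 rose in pregnancy, Prdx4, the peroxiredoxin of the endoplasmic reticulum. It stood at 12.27 and 12.15, then 12.66 and 12.73, then 12.26 and 12.17 over the 3 stages, and rose by 0.485 (SE 0.104, limma adjusted p = 0.0237). Its pregnant livers were above the other 4, and the call was kept in 3 of 6 fits with an array left out, missing without either pre-pregnancy liver or the second pregnant one. Cytosolic Prdx2 stood at 11.74 and 11.73, then 11.43 and 11.36, then 11.65 and 11.78, a pregnancy difference of -0.34 (limma adjusted p = 0.0663), and mitochondrial Prdx3 differed by -0.145 (adjusted p = 0.457). Gpx5 (0.325), Gpx6 (-0.065) and Gpx8 (-0.33) were dim at every stage and did not pass. Postpartum against pregnancy 0 of the 6 passed limma's threshold (2 had an unadjusted p under 0.05), with Prdx4 at -0.48 (adjusted p = 0.0527), Prdx2 at 0.32 and Prdx3 at 0.275. In that comparison 1 gene of the list was called lower without dim genes, with arrays centred on their medians and with a trended and robust variance.

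In the thioredoxin and glutaredoxin system, 2 of 14 genes rose in pregnancy and 0 fell, a count near the 13.7% of all genes called. Txnip, which binds and inhibits thioredoxin, rose by 0.625 (limma adjusted p = 0.0395) and the stress-responsive sestrin Sesn2 by 0.46 (adjusted p = 0.0388). Both calls are weak: with 1 array left out Txnip kept its call in 2 of 6 fits, losing it without any of the 4 pre-pregnancy and pregnant livers, and Sesn2 kept its call in 1 of 6, without the second pregnant liver. Postpartum against pregnancy Txnip fell by 1.26, from 9.95 and 10.15 to 9.02 and 8.56 (limma adjusted p = 0.0102), and Srxn1, the sulfiredoxin that restores overoxidised peroxiredoxins, rose by 0.595 (adjusted p = 0.0376).

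Of 10 measured genes for glutathione synthesis, reduction and breakdown, 2 rose in pregnancy and 0 fell, where 13.7% of all genes were called. Ggct, a gamma-glutamyl cyclotransferase, rose 3.62-fold, from 7.88 and 7.68 to 10.07 and 9.20 (log2 difference 1.855, SE 0.247, limma adjusted p = 0.00457), and stood at 9.33 and 9.23 postpartum. By the mean of its probe sets the pregnancy difference was 0.798 (adjusted p = 0.0107), and without the first pre-pregnancy liver Ggct missed the threshold (1.955, adjusted p = 0.0536). Glutathione synthetase (Gss) rose by 0.615 (adjusted p = 0.0243), a call kept in 2 of 6 fits with an array left out and lost without any pre-pregnancy or pregnant liver. Glutathione reductase (Gsr), which regenerates the cofactor of the peroxidases, rose by 0.525 from pregnancy to postpartum (adjusted p = 0.0387).

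Of 10 measured NADPH-supplying genes, 2 rose in pregnancy, H6pd of the endoplasmic reticulum (0.9, limma adjusted p = 0.00273) and mitochondrial Idh2 (0.655, adjusted p = 0.0118). Malic enzyme (Me1) fell by 1.25 (adjusted p = 0.0151). Called in pregnancy were 13.7% of all genes. Postpartum against pregnancy Me1 rose by 1.70 (adjusted p = 0.0133) and transketolase (Tkt), of the pentose phosphate pathway, by 1.05 (adjusted p = 0.00531).

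Oxidases that make peroxide or superoxide moved in both directions in pregnancy: of 20 measured, 2 rose and 4 fell. The shares over all genes were 5.46% and 8.25%. Acox2, a peroxisomal oxidase of branched acyl chains, rose by 1.065 (limma adjusted p = 0.00518) and spermine oxidase (Smox) by 0.985 (adjusted p = 0.0194). Nox4, an NADPH oxidase, fell from 5 and 5.95 to 3.54 and 3.68 (adjusted p = 0.00591), levels near background in pregnancy, so no fold is given. Xanthine dehydrogenase (Xdh) fell by 0.495 (adjusted p = 0.0242). Pipox (-0.845, adjusted p = 0.00389) and Maob (-0.375, adjusted p = 0.0464), an amine oxidase, fell too and were named after their values were seen. Postpartum against pregnancy the aldehyde oxidase Aox1 rose by 1.31 (adjusted p = 0.00263) and Xdh by 0.515 (adjusted p = 0.0478).

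Since Gpx1 to Gpx4 need selenocysteine, genes for selenium transport and selenoprotein synthesis were read with them. Of 11 measured, 0 passed limma's threshold in pregnancy, with differences from -0.445 to 0.2, and 1 had an unadjusted p under 0.05. With a replicate block 1 was called lower in pregnancy, and with a trended and robust variance 1 was too. From pregnancy to postpartum 1, the selenocysteine elongation factor Eefsec, rose (0.71, limma adjusted p = 0.0301). Of 13 measured other selenoproteins, 2 fell in pregnancy and 0 rose: Selenok, of the endoplasmic reticulum, by 1.13 (adjusted p = 0.00197) and the deiodinase Dio1 by 0.585 (adjusted p = 0.00985). Dio1 fell again postpartum, by 0.535 (adjusted p = 0.031). Among all genes, 13.7% were called in pregnancy and 3.29% in postpartum against pregnancy.

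Of 10 genes for copper and manganese, the metals of the dismutases, ceruloplasmin (Cp) rose by 0.72 in pregnancy (limma adjusted p = 0.00637), and the copper carriers Slc31a1 (-0.46, adjusted p = 0.0267) and Atp7b (-0.405, adjusted p = 0.0314) fell. Postpartum against pregnancy Cp fell by 0.55 and Atp7b rose by 0.455 (adjusted p = 0.0355 and 0.0489). Beside this list and the next, 13.7% of all genes were called in pregnancy and 3.29% in postpartum against pregnancy. Of 18 measured genes for building peroxisomes, where catalase works, Pex14 rose by 0.9 in pregnancy (adjusted p = 0.00297), Pex3 fell by 0.55 and Pex7 by 0.42, and 0 passed limma's threshold from pregnancy to postpartum, where 2 had an unadjusted p under 0.05. After quantile normalization again 4 of the 18 were called higher in pregnancy and 1 lower. Pex7 lost its call in that setting and with arrays centred on their medians.

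**Figure D4:**
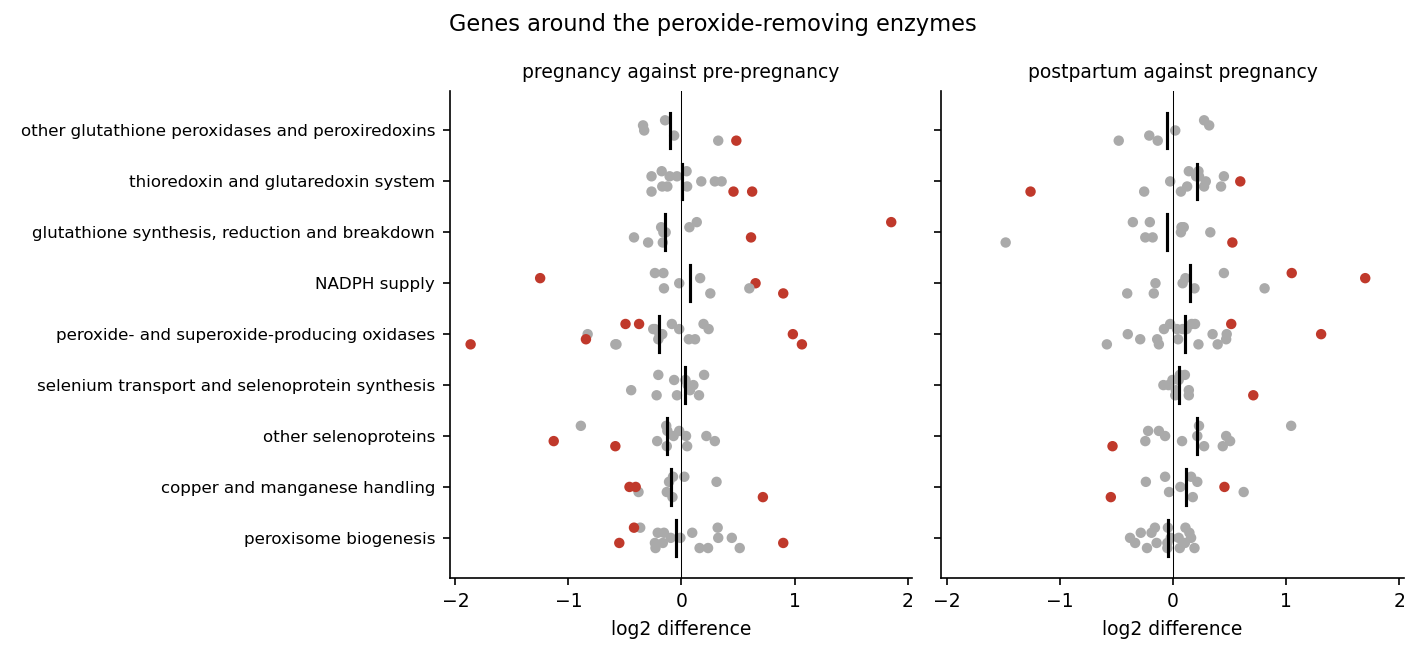
Log2 difference of each measured gene of 9 lists around the enzymes, in pregnancy against pre-pregnancy (left) and postpartum against pregnancy (right); red points have an adjusted p under 0.05 and bars are list medians. Red points lie on both sides of 0 in pregnancy, 11 higher and 11 lower of 112.

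Over these 9 lists, 22 of 112 measured genes (19.6%) were called in pregnancy, 11 higher and 11 lower (15 and 7 after quantile normalization again), beside 13.7% of all genes. From pregnancy to postpartum 11 of 112 were called, 9.82% beside 3.29%, 8 higher and 3 lower. From pre-pregnancy to postpartum 17 of 112 were called, 15.2% beside 7.66%, 10 higher and 7 lower. These shares are not like for like, because the lists hold fewer dim genes than the whole series. Without dim genes 24 of 100 were called in pregnancy, beside 2290 of 10916 genes. In postpartum against pregnancy there were 12 of 100, beside 597 of 10916, and in postpartum against pre-pregnancy 19 of 100, beside 1474. The lists were also chosen with earlier results of these data known. With single arrays left out, the pregnancy count fell to 4 (first pre-pregnancy liver), 10 (second pre-pregnancy liver) and 13 (second pregnant liver), and was 18 to 20 without each of the other 3. Of the 22 genes, H6pd, Nox4, Pex14 and Selenok kept their call without each of the 6 arrays in turn. The other 18 lost it without the first pre-pregnancy liver, and for Acox2, Cp, Ggct and Pipox that was the only array whose loss ended the call. Dio1, Me1 and Smox kept it in 4 of the 6 fits with an array left out, Idh2, Pex3, Prdx4, Slc31a1 and Xdh in 3, Gss and Txnip in 2 and Sesn2 in 1. Atp7b, Maob and Pex7 lost theirs whichever array was left out. The Nox4 call compares pre-pregnancy levels with levels near background, so the size of its difference is not given. Averaging a gene's probe sets ended the calls of Atp7b, Gss, Pex3, Prdx4, Sesn2 and Txnip in pregnancy. In postpartum against pregnancy it ended those of Atp7b, Gsr and Srxn1. Quantile normalization again ended the calls of Atp7b, Maob, Pex7 and Xdh in pregnancy. It ended those of Atp7b, Cp, Eefsec, Gsr, Srxn1 and Xdh in postpartum against pregnancy. With only the 2 groups compared 4 of 112 were called in postpartum against pregnancy. The postpartum count was 3 to 10 over the arrays left out, and 5 after quantile normalization again. Aox1, Tkt and Txnip kept their postpartum call without each of the 6 arrays, Me1 kept it in 4 of 6 and Srxn1 in 1 of 6, and Atp7b, Cp, Dio1, Eefsec, Gsr and Xdh lost theirs whichever array was left out. The count from pre-pregnancy to postpartum was 3 to 18 over the arrays left out.

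Markers of liver cell types were read beside these genes, as sums of linear signal over each list. For the marker counts here and below, 13.7% of all genes were called in pregnancy, and 31.0% had an unadjusted p under 0.05. In postpartum against pregnancy these shares were 3.29% and 20.7%. All 7 measured neutrophil markers were higher in pregnancy, by 0.15 to 0.74, 6 of them at an unadjusted p under 0.05 and 2 past limma's adjusted threshold (S100a9 and Mpo), and 5 of the 7 were dim. All 7 were lower postpartum than in pregnancy, by -0.525 to -0.18. Of these, 5 had an unadjusted p under 0.05 and 1, S100a9, passed the adjusted threshold. That postpartum count was 0 with a replicate block and when the third group was not fitted. It was 2 once probe sets were averaged, and likewise if arrays were median-centred or the variance was trended. The pregnancy count was 1 after repeated quantile normalization and 3 once probe sets were averaged. Leaving out any single array lowered the postpartum count, and for some arrays the pregnancy count fell too. The neutrophil sums were 265 and 292 before, 377 and 393 in pregnancy and 292 and 296 postpartum. Both these sums and the much larger hepatocyte sums given below were highest in pregnancy, the stage at which Gpx3 was highest.

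Of 9 hepatocyte markers 2 rose in pregnancy (Apob by 0.58 and Asgr1 by 0.395) and 0 fell, with sums of 159713 and 162037 before, 170240 and 171440 in pregnancy and 164630 and 165731 postpartum. Endothelial markers fell for 3 of 10 in pregnancy (Kdr, Tek and Emcn), with sums of 5579 and 6888 before, 4854 and 4944 in pregnancy and 4652 and 4953 postpartum. Of 12 Kupffer cell and macrophage markers 2 fell (Timd4 and Lyz2), with sums of 10817 and 11337 before, 8388 and 10388 in pregnancy and 10878 and 11591 postpartum. Of 9 stellate cell markers 1, Lrat, fell, with sums of 8523 and 9055 before, 7606 and 7767 in pregnancy and 6414 and 7605 postpartum. Over all genes 5.46% were called higher in pregnancy and 8.25% lower. These marker counts depended on the setting. With a replicate block 1 hepatocyte marker was called higher and 4 endothelial markers lower. After quantile normalization again 1 Kupffer cell and macrophage marker was called higher and 1 lower. With a trended and robust variance 0 stellate cell markers were called. The counts also changed with some single arrays left out.

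Of 6 measured bile duct markers 1 rose in pregnancy (Tspan8), and 0 of 8 erythroid, 0 of 7 lymphocyte and 0 of 5 adipocyte markers passed limma's threshold, adjusted or at an unadjusted p under 0.05. Of those 3 lists 6, 5 and 3 markers were dim. The Tspan8 call was lost with the mean of probe sets. The fat cell marker Adipoq stood between 3.38 and 3.60 on all 6 arrays. The part of these cell types in the values of Gpx3 and the other enzymes was not tested.

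The genes whose profile over the 6 arrays was nearest to that of Gpx3 were Cela3b, Rogdi, Vnn1, Nid1 and Rgs16. Likeness was the root-mean-square distance between log2 values centred on each gene's mean, so it counts size as well as shape. The median distance over 18192 genes was 1.74, 13 genes lay within 1, and 1, Cela3b, lay within 0.5. These genes were picked for their likeness, so their values are a description.

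Cela3b, an elastase-like endopeptidase gene best known from the pancreas, was the nearest, at 0.429. It stood at 6.31 and 6.44, then 9.23 and 9.59, then 6.41 and 6.78 over the 3 stages. Its pregnant livers stood apart as those of Gpx3 did, with a smaller difference of 3.035. Of the 8 measured pancreatic acinar markers the 6 other than Cela3b and Cela1 were dim, and Cela1 fell by 1.18 in pregnancy (limma adjusted p = 0.00167). The dim 6 differed by -0.045 (Cela2a) to 0.405 (Cel), and 2 of them, Cpa1 (0.355) and Cel, had an unadjusted p under 0.05 but did not pass the adjusted threshold. Without the second pregnant liver 2 acinar markers were called higher in place of 1. The list's median was 0.155, its linear sums were 1568 and 1660 before, 1354 and 1591 in pregnancy and 919 and 959 postpartum, and the part of acinar cells in the Cela3b values was not tested.

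Rogdi (distance 0.822), the pantetheinase Vnn1 (0.843), the basement membrane gene Nid1 (0.844) and the G protein regulator Rgs16 (0.896) had pregnancy differences of 2.33, 2.23, 2.095 and 2.055. Their pregnant livers also lay above the other 4, and in Vnn1 the postpartum livers (8.97 and 9.30) lay below the pre-pregnancy ones (9.78 and 9.84), unlike Gpx3. The difference between these patterns was not tested.

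**Figure D5:**
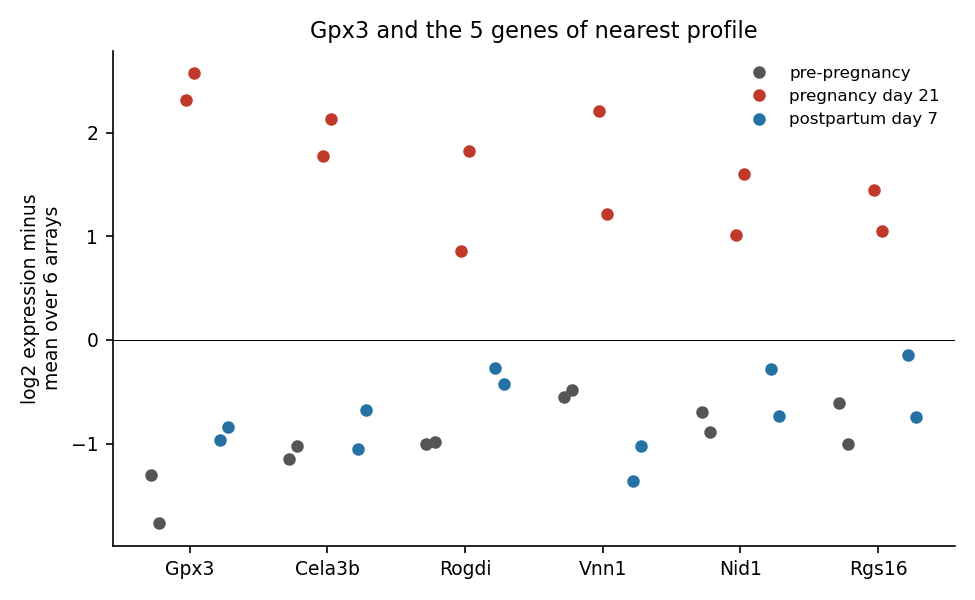
Log2 level minus the mean over 6 arrays for Gpx3 and the 5 genes of nearest profile; points are single livers. In each gene both pregnant livers lie above the other 4, and for Cela3b the distance from Gpx3 is 0.429.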

How the data were processed

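RNA of 6 mouse livers was hybridised to Affymetrix arrays. The deposited values are log2 levels of 45101 probe sets, made with RMA and Affymetrix Power Tools per the submitters' processing notes; their settings were not given in the sources used here. That the scale is log2 was inferred from the values. Quantile normalization, a usual step of RMA, equalises the arrays' distributions, and differences near background are compressed. Array medians were 5.09 to 5.15, and replicates correlated across genes at 0.994 to 0.997. The number of arrays limits the precision.

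Probe sets with exactly 1 symbol in the platform annotation (34945; 932 had several and 9160 none) gave 18193 genes, each read by its brightest probe set. All 6 arrays were fitted with limma 3.58.1 in R 4.3.3 (a mean per group, eBayes; 3 residual and 4.80 prior degrees of freedom), with Benjamini-Hochberg adjustment over all genes and two-sided p-values. The procedure was tested on simulated data with independent noise and fewer changed genes than were called here. That test does not bear on how reliable these calls are. The labels call the replicates biological and say no more, so p-values measure the spread between these livers only. For each gene eBayes takes part of that spread from the other genes.

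The members and lists were chosen with earlier results of these data known. Named were all members and their relatives, up to 3 called genes per other list and comparison, and the 5 profiles nearest to Gpx3. The alternatives were a replicate block, leaving out dim genes, repeated quantile normalization, median centring, a trended robust variance, the mean of probe sets, other probe sets, each array left out, and only the 2 groups compared. The labels do not say whether replicate numbers pair the samples, and the main fit did not pair them. Correlations of replicate differences between groups were 0.028, 0.111 and -0.027. With 1 such difference per group, they cannot show whether samples were paired.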

Additional observations from a re-analysis of the deposited data

How the results depend on the processing

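With the array number limiting precision, counts moved most when 1 array was left out, which leaves a group of 1 that is assumed to vary like the others. Genes called went from 2494 to between 323 and 1977 in pregnancy against pre-pregnancy, from 599 to between 114 and 528 in postpartum against pregnancy, and from 1393 to between 73 and 1582 in postpartum against pre-pregnancy. Called enzymes were 0 to 2 in pregnancy. The Gpx3 difference was 3.75 to 4.21 in pregnancy, -3.475 to -3.215 postpartum against pregnancy, and 0.405 to 0.865 postpartum against pre-pregnancy. Fitting only the 2 groups compared gave 203 genes in postpartum against pregnancy. In that comparison 1 enzyme was called without dim genes, after quantile normalization again and after centring, and 2 with a trended and robust variance; the cause was not tested. Its genes were 439 higher and 160 lower, and 292 and 175 after quantile normalization again.

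Of the differences whose sign turned, Sod3 in pregnancy was called by its brighter probe set, and the turned values themselves were not called. By other probe sets Gpx4 (0.165), Sod1 (0.04, dim) and Sod3 (-0.075) turned in pregnancy, Sod2 (0.085, 0.475 and 0.035, and 0.134 with the mean of probe sets) in postpartum against pregnancy, and Cat (0.01) in postpartum against pre-pregnancy. Over single arrays left out, Cat ranged from -0.045 to 0.005 in both postpartum comparisons, Gpx2 from -0.105 to 0.025 and Gpx7 from -0.055 to 0.385 in postpartum against pre-pregnancy, and Gpx6 from -0.19 to 0.06 in pregnancy. The labels give replicates of different groups only a number in common. With that number as a block 2612, 574 and 1567 genes were called in the 3 comparisons, and the enzyme counts were 2, 0 and 0. Maob in pregnancy and Atp7b, Srxn1 and Xdh in postpartum against pregnancy lost their calls. Leaving out each array for the less bright Sod2 probe set was chosen after seeing the data.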
